A study of Mus musculus with 4 samples.

Results

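Wfdc17, Wfdc18, Wfdc2 and Slpi, 4 of the 31053 genes in the count tables, encode secreted proteins of the whey acidic protein (WAP) family. They were chosen by name for their antiprotease domain, and Wfdc17 and Wfdc18 in addition for a lower level in progenitor-like thymic epithelial cells (TECs) without both CD40 and RANKL signals. That difference is therefore described here and supports nothing by itself. UMIs, the molecular tags that stand for single captured mRNA molecules, were summed for each gene over marker-gated cell classes in each of 4 libraries.

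The libraries came from C57BL/6 mice of 6 weeks of age and were named WT-Control and WT-RANKL-Ab for wild-type mice, Cd40-/- Control and Cd40-/- RANKL-Ab for the mutants. Where 4 values are given without names, they follow this order. Wild-type mice and mice lacking Cd40 were given either an antibody that neutralizes RANKL or a control IgG, subcutaneously at 5 mg/kg, at 4 weeks of age, and thymi were taken 2 weeks later. All 4 libraries held EpCAM+ cells sorted against CD45 and TER119, pooled from 3 mice per library. With 1 library per condition there was no replicate and no test between conditions: all intervals are exact 95% intervals that cover counting error only.

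WAP domains are small folds held together by 4 disulfide bonds, and several proteins that carry them block serine proteases at epithelial surfaces. Slpi is the secretory leukocyte protease inhibitor of neutrophil elastase and cathepsin G. Wfdc2, also called HE4, is abundant in secretory and airway epithelium. Wfdc17, also called Amwap, was described in activated macrophages and microglia, and Wfdc18, also called Expi or WDNM1, in mammary epithelium. In the thymus, medullary TECs (mTECs) express many genes that are otherwise restricted to other tissues, and their mimetic subsets, such as microfold-like and tuft-like cells, resemble cells of those tissues.

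The files name the genes ENSMUSG00000069792 (Wfdc17), ENSMUSG00000000983 (Wfdc18), ENSMUSG00000017723 (Wfdc2) and ENSMUSG00000017002 (Slpi). On GRCm38, Wfdc17 spans chr11:83703991-83706268 and Wfdc18 spans chr11:83709015-83711348, both on the plus strand, with 2746 bases between them. Wfdc2 lies at chr2:164562413-164568510 on the plus strand and Slpi at chr2:164354070-164389095 on the minus strand. Both chromosome 2 genes lie near Cd40, at 487.1 and 666.5 kb.

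The sequences upstream of the neighbouring Wfdc17 and Wfdc18 are shown because the pair differed in its pattern over cell classes. The windows are chr11:83703880-83703979 and chr11:83708904-83709003 on the plus strand, taken from the RefSeq promoter table of GRCm38 and ending 12 bases before the annotated gene starts. Capitals mark bases that are identical in the alignment of these windows.
Wfdc17: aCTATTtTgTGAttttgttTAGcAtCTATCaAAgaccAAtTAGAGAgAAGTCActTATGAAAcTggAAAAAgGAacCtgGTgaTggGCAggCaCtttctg
Wfdc18: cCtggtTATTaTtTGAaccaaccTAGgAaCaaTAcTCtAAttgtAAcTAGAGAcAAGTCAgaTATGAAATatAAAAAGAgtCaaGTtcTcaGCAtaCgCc
Of 93 aligned bases, 58 (62.4%) were identical. Windows of the same length next to the RefSeq starts shared 42.3% between Wfdc17 and Wfdc18 and between 44.7% and 55.6% in the other pairs of the 4 genes. The RefSeq start of Wfdc17 lies inside the gene as annotated above, and that of Wfdc18 lies before its gene. These windows are thus offset between the pair, and 42.3% and 62.4% are not like measures. The motif search used the same RefSeq starts. In the 250 bases before 1 RefSeq start per gene, searched on both strands, the letters TATAAA occurred once in Wfdc18 and in none of the others, against 12.4% of 32851 promoters. The letters TGANTCA and the NF-kB consensus had 0 matches in all 4 windows, against 6.75% and 7.25% of promoters.

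Of 29253 barcodes, 28055 were kept, having 200 or more genes and no more than 25% mitochondrial UMIs. They ranged from 2082 cells in Cd40-/- RANKL-Ab to 10218 in WT-Control, with medians of 6086 to 7621.5 UMIs per cell. Cd40 itself was at 110 CPM (UMIs per 1000000 UMIs of the cells summed) in WT-Control and 28.8 in WT-RANKL-Ab, whereas the Cd40-/- libraries held 5.75 with control IgG and 4.75 with the antibody. The Cd40-/- Control and Cd40-/- RANKL-Ab libraries shared 205 barcodes, at a median of 723 UMIs in the former and 24073 in the latter, and other pairs of libraries shared 17 to 116. Without the barcodes shared by the Cd40-/- libraries, the log2 ratios of Cd40-/- Control to WT-Control in progenitor-like cells given below would be -3.37 for Wfdc17, 0.78 for Wfdc18, -0.81 for Wfdc2 and 1.45 for Slpi. Only 1 of the 508 cells of this class in Cd40-/- Control had such a barcode, so these values could hardly move. In Cd40-/- RANKL-Ab 29 of 466 had one, and its ratios were not recomputed without them. Progenitor-like cells, gated on Pdpn, Ackr4, Dcn, Fmod, Fst, Gas1, Bgn and Col14a1, numbered 284 in WT-Control and 546 in WT-RANKL-Ab, and 508 and 466 in the corresponding Cd40-/- libraries. All 8 markers were detected, 4 of them among the 10 leading genes. In a clustering described below, 97 of the 284, 366 of the 546, 156 of the 508 and 207 of the 466 cells fell into the progenitor-like cluster. The overlap of gate and cluster thus differed between libraries. The gate for Aire+ mTECs held none of its markers among its 10 leading genes but the neutrophil genes S100a8 and S100a9. Its cells are therefore called cells of the Aire gate. In total 5823 cells fell into no class.

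Wfdc17 was concentrated in microfold-like cells, which were gated on Gp2, Spib, Tnfaip2, Ccl9 and Ccl20. In WT-Control this class stood at 2028 CPM, above secretory-like (445 CPM), keratinocyte-like (358 CPM) and enterohepatic-like cells (271 CPM), with intervals that did not overlap between these neighbours. TA-TEC-like (cycling), neuroendocrine-like, progenitor-like and cTEC-like cells lay between 77.2 and 52.8 CPM, and each of their intervals overlapped that of the next. Thymocyte-like cells, which should not express the gene, stood at 25.1 CPM on 5 UMIs.

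In microfold-like cells Wfdc17 was at 1106 CPM in WT-RANKL-Ab, Cd40-/- Control had 1384 CPM, and the single microfold-like cell of Cd40-/- RANKL-Ab held no Wfdc17 UMI. The log2 ratios to WT-Control were -0.87 (-1.01 to -0.74) and -0.55 (-0.62 to -0.48). Of the 459 UMIs in WT-RANKL-Ab 162 were in 1 cell, and without the highest cell of each library the levels were 1860, 736 and 1234 CPM. The class itself held 382, 66, 237 and 1 cells. When each cell was thinned to 1000 UMIs, Wfdc17 was detected in 36.0% (31.1 to 41.1) of microfold-like cells in WT-Control, 29.5% (18.5 to 42.6) of those in WT-RANKL-Ab and 36.1% (29.7 to 42.9) of those in Cd40-/- Control, against 0 of 34, 0 of 144 and 3 of 119 thymocyte-like cells. Unthinned, the shares in microfold-like cells were 59.2%, 42.4% and 57.0%. The shares in the 3 libraries overlapped in their intervals. The gene was carried by a minority of these cells at high level: 27.5% of the WT-Control microfold-like cells held 10 or more Wfdc17 UMIs, and the 10 highest cells held 35.5% of the UMIs.

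In progenitor-like cells, the values that entered the choice of the gene were 63.6 CPM in WT-Control (156 UMIs) and 0.519 CPM in WT-RANKL-Ab (2 UMIs), and among Cd40-/- libraries 6.13 CPM with control IgG (22 UMIs) and 0.703 CPM with the antibody (3 UMIs). These gave log2 ratios to WT-Control of -6.94 (-10.00 to -5.06), -3.38 (-4.09 to -2.73) and -6.50 (-8.79 to -4.93). A single cell accounted for most of the WT-Control value. It held 140 of the 156 UMIs (89.7%), and the next highest of the 13 cells with a UMI held 5. Without the highest cell of each library, Wfdc17 stood at 6.59, 0.260, 5.31 and 0.469 CPM. The log2 ratios became -4.66 for WT-RANKL-Ab, -0.31 for Cd40-/- Control and -3.81 for Cd40-/- RANKL-Ab. The first and the last rested on 1 and 2 UMIs. The WT-Control level of 6.59 CPM lay below that of the thymocyte-like cells of this library (25.1 CPM, 8.14 to 58.5). These ratios are therefore not read as a difference in expression. In cells of the progenitor-like cluster, in place of the gate, the ratio of Cd40-/- Control was 1.72, of the opposite sign. Clusters were found on 2000 variable genes, chosen without the 4 genes, mitochondrial genes and the antiprotease and protease lists given below.

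The cell with 140 Wfdc17 UMIs carried 21618 UMIs in 5170 genes, against a class median of 6965 UMIs. It expressed all 8 progenitor-like markers at 67 UMIs, 4 of 5 microfold-like markers at 21 UMIs and none of 8 thymocyte markers. Of 10 macrophage and myeloid markers it expressed 4 at 10 UMIs in sum, with Ptprc at 0. It also held 160 Wfdc18, 24 Wfdc2 and 2 Slpi UMIs, and 113 of the 116 Scgb1a1 UMIs found in the 284 cells. Scgb1a1 encodes the club cell secretory protein of airways. In the clustering this cell fell into a keratinocyte-like cluster of 723 cells, and its Scrublet doublet score lay at percentile 99.5 of its library. Whether it was a doublet was not tested.

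Thinned to 1000 UMIs, 3 of 284 progenitor-like cells had a Wfdc17 UMI in WT-Control, against 0 of 545, 3 of 507 and 0 of 466 in the other libraries. Unthinned, 4.58%, 0.366%, 2.95% and 0.644% had one. At this depth the counts of 0 allow shares of cells with a UMI of up to 0.550% and 0.644%, taken as 3 cells of the total. In Cd40-/- Control the thinned share in progenitor-like cells (0.592%) was below that in thymocyte-like cells (2.52%) and is read as background. In the other libraries thymocyte-like cells had none. WT-Control had only 42 thymocyte-like cells, with 5 Wfdc17 UMIs unthinned (25.1 CPM). These were too few to set a share of 3 in 284 cells apart from background. Among markers of other cells in the progenitor-like gate, microfold-like markers summed to 76.7, 17.9, 47.1 and 24.4 CPM, and myeloid markers to 74.3, 11.7, 34.3 and 7.73 CPM. Of the myeloid markers 9 of 10 had a UMI in WT-Control and 7, 10 and 8 in the other libraries, with Ptprc at 0 in both wild-type libraries. Neutrophil markers summed to 153, 14.3, 94.2 and 11.9 CPM. These 3 lists were higher in both control IgG libraries, whereas thymocyte markers (5.71, 6.23, 12.0 and 22.0 CPM) and fibroblast markers (65.7, 76.3, 63.8 and 73.8 CPM) were not. Their part in the Wfdc17 values was not tested.

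**Figure D1:**
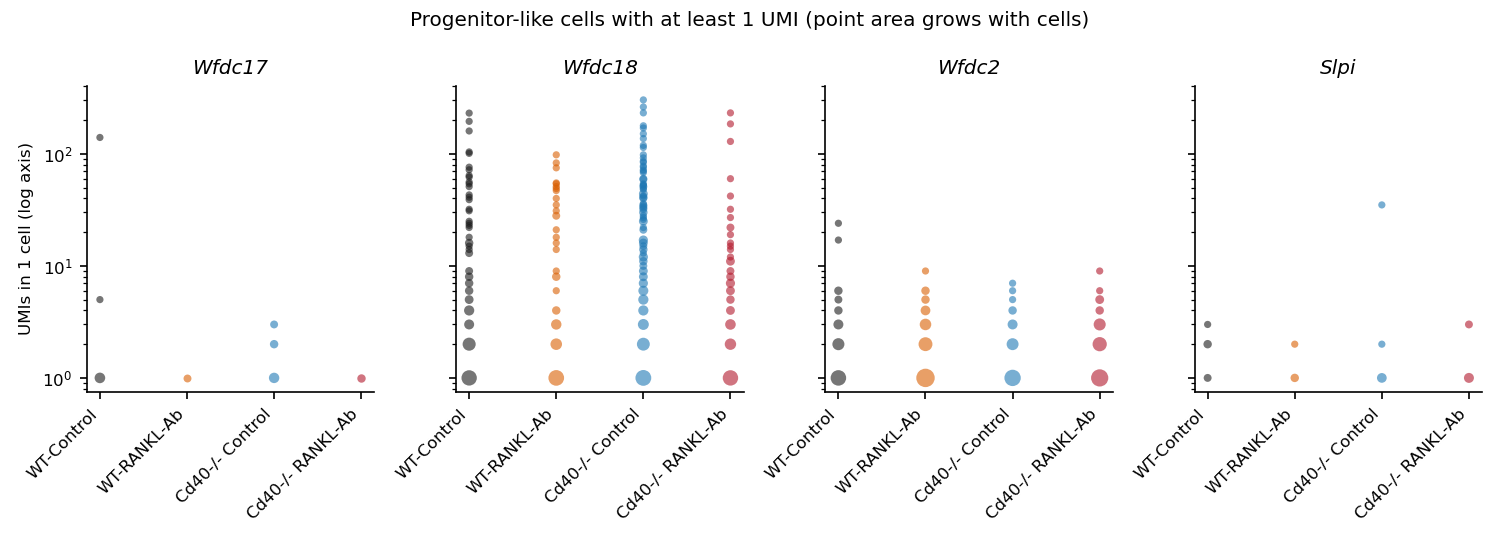
UMIs of each gene (log axis) in single progenitor-like cells with at least 1 UMI, by library, with larger points for more cells at the same value. For Wfdc17 1 WT-Control cell stands at 140 UMIs and all other cells of the 4 libraries at 5 or fewer, and for Slpi 1 Cd40-/- Control cell stands at 35 UMIs, whereas Wfdc18 spreads from 1 to 303 UMIs.

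Across the other classes, Wfdc17 was lower beyond counting error in WT-RANKL-Ab than in WT-Control in 9 of the 10 that had at least 20 cells in both libraries. The exception was the Aire gate, where 172 against 101 CPM turned into 73.1 against 95.6 CPM without the highest cell of each library. In Cd40-/- RANKL-Ab it was lower in 7 of 7 other classes, with log2 ratios of -3.28 in tuft-like to -7.17 in cTEC-like cells, and 0 UMIs in thymocyte-like cells, and without the highest cells it was lower in 6. In Cd40-/- Control it was lower in 5 of 14 other classes, higher in 5 and within counting error in 4, and without the highest cells it was lower in 5 and higher in 1. CCL21+ mTEC-like cells, gated on markers that included Ccl21a, Krt5, Krt14 and Itgb4, held 38.2, 19.6, 17.6 and 2.47 CPM in the 4 libraries. The WT-Control level overlapped that of thymocyte-like cells (25.1 CPM, 8.14 to 58.5), and with the thymocyte-like level subtracted the ratio of WT-RANKL-Ab turned from -0.97 to 0.57. There the ratio of Cd40-/- RANKL-Ab was -3.95 (-4.91 to -3.14) and, without the highest cells, -4.15, so that 1 cell did not carry it.

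Wfdc18 was measured at far more UMIs in nearly every class. In WT-Control it was highest in microfold-like cells at 13004 CPM, followed by CCL21+ mTEC-like cells at 6668 CPM, and then neuroendocrine-like (5644 CPM) and keratinocyte-like cells (5389 CPM), whose intervals overlapped. Progenitor-like cells, at 781 CPM, lay near the low end, with the Aire gate (803 CPM) and parathyroid-like cells (775 CPM) as neighbours within counting error. Of the Wfdc17-positive microfold-like cells of WT-Control at 1000 UMIs, 118 of 132 (89.4%) also had a Wfdc18 UMI, while 219 of 367 cells had Wfdc18.

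Among progenitor-like cells Wfdc18 was at 781 CPM in WT-Control (1915 UMIs) and 241 CPM in WT-RANKL-Ab (929 UMIs), and in Cd40-/- mice at 1337 CPM with control IgG (4796 UMIs) and 266 CPM with the antibody (1134 UMIs). The log2 ratios to WT-Control were -1.70 (-1.81 to -1.58), 0.77 (0.70 to 0.85) and -1.56 (-1.66 to -1.45). Both libraries treated with the antibody were therefore low and both control IgG libraries high, and between the antibody libraries the difference was 0.14 (0.01 to 0.27). In contrast to Wfdc17, the values rested on many cells: the highest cell held 12.1% of the UMIs in WT-Control and 20.5% in Cd40-/- RANKL-Ab, and without the highest cells the ratios were -1.67, 0.86 and -1.70. Cells with 10 or more Wfdc18 UMIs numbered 29 of 284, 17 of 546, 86 of 508 and 18 of 466 in the same order of libraries.

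At 1000 UMIs per cell, 22.9% (18.1 to 28.2) of progenitor-like cells had Wfdc18 in WT-Control, 6.24% (4.36 to 8.61) with the antibody, 25.6% (21.9 to 29.7) in Cd40-/- Control and 8.15% with both, and unthinned 55.3%, 22.5%, 47.4% and 28.3%. The corresponding shares in thymocyte-like cells were 8.82% (1.86 to 23.7), 6.25% (2.90 to 11.5), 9.24% (4.71 to 15.9) and 2.29% (0.475 to 6.55), from cells with median depths of 1017 to 2119.5 UMIs against 6103 to 8251 in progenitor-like cells. The share in WT-RANKL-Ab progenitor-like cells was thus at the level of thymocyte-like cells. The intervals of WT-Control and of Cd40-/- RANKL-Ab overlapped those of their thymocyte-like cells. In these libraries the share alone is not read as expression. Still, 17 of 546 WT-RANKL-Ab cells and 18 of 466 Cd40-/- RANKL-Ab cells held 10 or more Wfdc18 UMIs. Thymocyte-like cells carried Wfdc18 at 1630, 208, 258 and 29.3 CPM, of which 169 of 325 UMIs in WT-Control came from 1 cell. Their log2 ratios to WT-Control were -2.97, -2.66 and -5.80. The progenitor-like level of WT-Control, 781 CPM, lay below that of its thymocyte-like cells, and that of WT-RANKL-Ab lay near it. In both Cd40-/- libraries it lay above. How far background entered the progenitor-like ratios was not tested.

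The progenitor-like gate contained both Ccl21a-high cells (at least 20 Ccl21a UMIs per 10000) and Ccl21a-low cells, and Wfdc18 was carried mainly by the former. Ccl21a-high cells made up 62.0%, 32.8%, 64.0% and 59.9% of the gate in the 4 libraries. In Ccl21a-high cells Wfdc18 was at 1094, 633, 1931 and 423 CPM, with ratios to WT-Control of -0.79 (-0.91 to -0.67), 0.82 (0.74 to 0.90) and -1.37 (-1.48 to -1.26). In Ccl21a-low cells it was at 248, 20.7, 84.9 and 12.3 CPM, where 160 of the 224 WT-Control UMIs came from the cell with 140 Wfdc17 UMIs. Without the highest cells these levels were 72.4, 19.5, 67.0 and 11.1 CPM, and the ratios -1.89, -0.11 and -2.71. The antibody libraries were thus low in Ccl21a-high cells, and the higher level in Cd40-/- Control was found there. Each Ccl21a-low level lay below the thymocyte-like level of its library given above, so its ratios are not read as a difference in expression. The Ccl21a-high level of WT-Control, 1094 CPM, also lay below the thymocyte-like level of that library. How far background entered the Ccl21a-high ratios was not tested. With the progenitor-like cluster in place of the gate the ratio of Cd40-/- Control was -0.83, and the antibody libraries stood at -1.36 and -2.07.

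**Figure D2:**
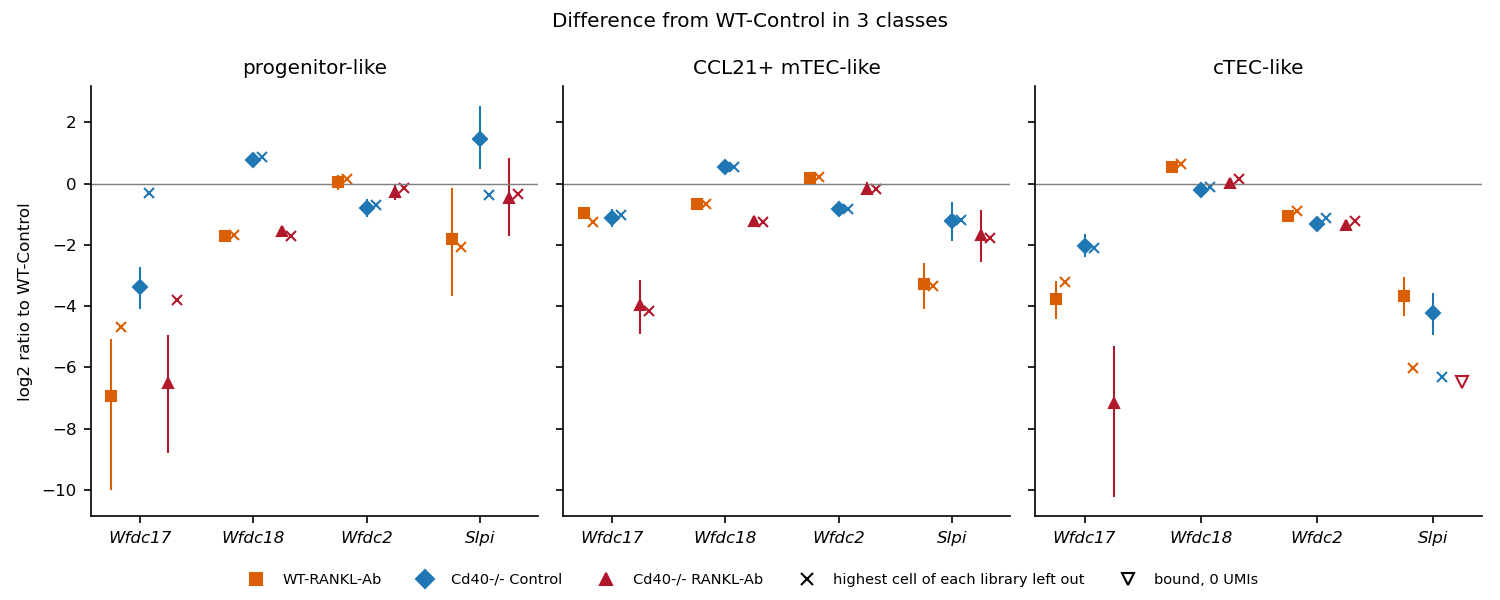
Log2 ratios to WT-Control in progenitor-like, CCL21+ mTEC-like and cTEC-like cells for each gene, with exact 95% intervals of counting error (lines) and the values without the highest cell of each library (crosses). In progenitor-like cells the Wfdc17 ratios move from -6.94, -3.38 and -6.50 to -4.66, -0.31 and -3.81 without these cells, while the Wfdc18 ratios of -1.70, 0.77 and -1.56 become -1.67, 0.86 and -1.70.

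In the progenitor-like class, 2 of the 3 genes that reached 50 UMIs over the pair of libraries, Wfdc17 and Wfdc18, were at least 2-fold lower in Cd40-/- RANKL-Ab than in WT-Control, against 2.84% of 9214 genes, and nothing is read from this count since the rule used it. The same 2 were lower in WT-RANKL-Ab, against 3.21% of 8992 genes, and in Cd40-/- Control 1 of 4 (Wfdc17) was lower, against 1.64% of 9074 genes, and 1 of 4 (Slpi, through 1 cell) at least 2-fold higher, against 6.66%. In CCL21+ mTEC-like cells 3 of 4 (Wfdc17, Wfdc18 and Slpi) were at least 2-fold lower in Cd40-/- RANKL-Ab, against 6.09% of 11494 genes. With 10 CPM added to each level 2 of 4 were lower, against 1.59% of these genes. The WT-Control levels of Wfdc17 and Slpi in this class overlapped those of thymocyte-like cells in their intervals. In cTEC-like cells 3 of 4 (Wfdc17, Wfdc2 and Slpi) were lower, against 6.47% of 9850 genes, although Wfdc2 stood at -0.12 in cells placed alike by gate and cluster. All these comparisons share the WT-Control library.

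In CCL21+ mTEC-like cells, which held 38.4% of the Wfdc18 UMIs of WT-Control, the gene was at 6668, 4254, 9802 and 2838 CPM. The ratios were -0.65 (-0.66 to -0.64), 0.56 (0.54 to 0.57) and -1.23 (-1.26 to -1.21), in the same directions as in progenitor-like cells. Early Aire-lineage-like cells, gated on Hes6, Utf1, Tmem158 and Nkx6-2, showed the opposite: 2172 and 2638 CPM with control IgG (WT-Control first) against 7320 and 9400 CPM with the antibody. The ratios of the antibody libraries were 1.75 (1.73 to 1.78) and 2.11 (2.04 to 2.19), the latter from 22 cells. In this class 418 of 502 cells of WT-RANKL-Ab and 21 of 22 of Cd40-/- RANKL-Ab were Ccl21a-high, against 268 of 1236 in WT-Control and 130 of 800 in Cd40-/- Control. Its part in the Wfdc18 values was not tested.

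Microfold-like cells kept a high Wfdc18 level, at 18608 CPM in WT-RANKL-Ab, while Cd40-/- Control had 13931 CPM, and here 1 cell held 1460 of the 7722 UMIs of WT-RANKL-Ab. Wfdc17 and Wfdc18 thus differed in direction in the microfold-like cells of WT-RANKL-Ab, with -0.87 for the former and 0.52 (0.48 to 0.55) for the latter. Over the classes other than progenitor-like, Wfdc18 was higher in Cd40-/- Control than in WT-Control in 11 of 14 and lower in 3, and without the highest cells higher in 10. In WT-RANKL-Ab it was lower in 5 of 10 and higher in 5.

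**Figure D3:**
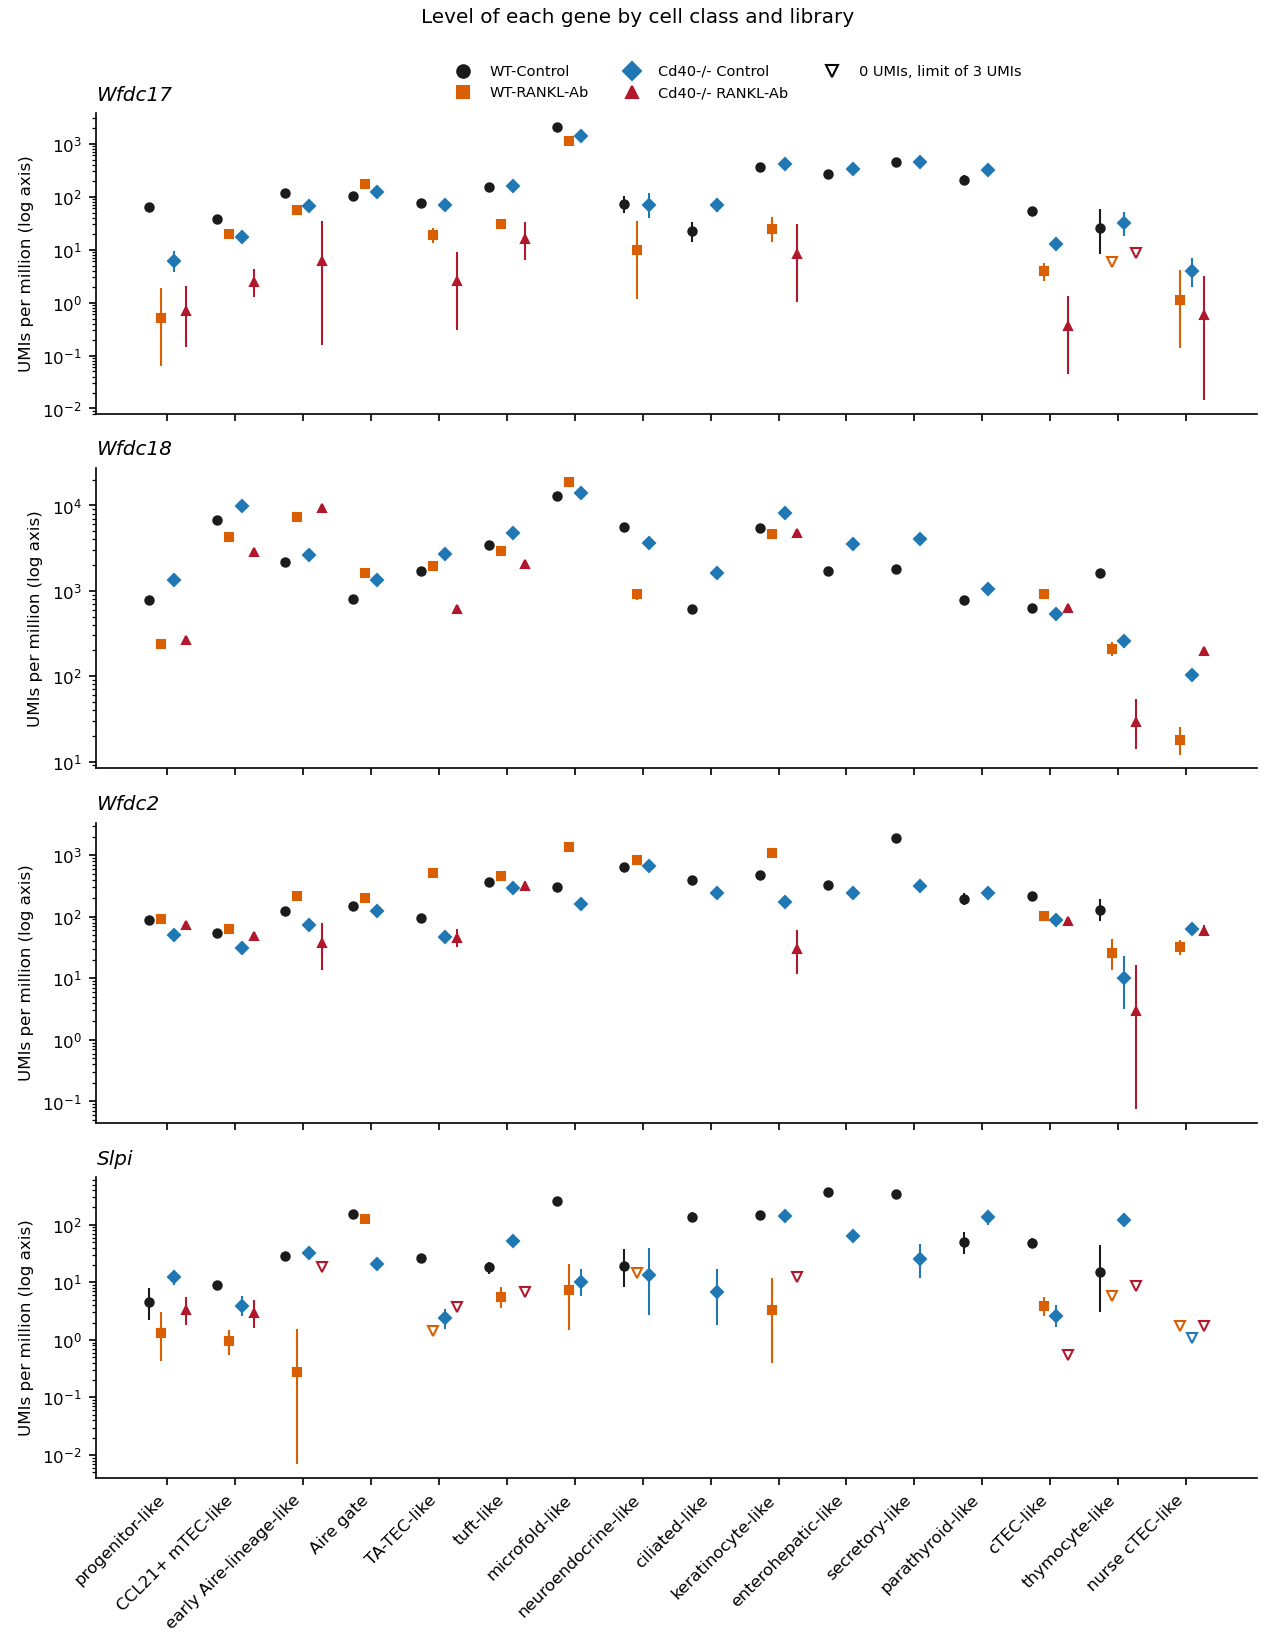
Level of each gene in CPM (log axis) by gated cell class and library, for classes with at least 20 cells, with exact Poisson 95% intervals. Open triangles mark the limit of 3 UMIs where a class held none, and Wfdc17 and Wfdc18 are highest in microfold-like cells at 2028 and 13004 CPM in WT-Control.

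Wfdc2 differed less between libraries in progenitor-like cells. It was at 87.7 CPM in WT-Control (215 UMIs), 90.3 CPM in WT-RANKL-Ab (348 UMIs), and 50.2 CPM (180 UMIs) and 72.6 CPM (310 UMIs) in the corresponding Cd40-/- libraries. The ratios were 0.04 (-0.21 to 0.29), -0.81 (-1.10 to -0.51) and -0.27 (-0.53 to -0.01), so that Cd40-/- Control was the lowest and WT-RANKL-Ab within counting error of WT-Control. The latter was a sum of opposite differences, -0.65 (-0.96 to -0.33) in Ccl21a-low and 0.66 (0.24 to 1.09) in Ccl21a-high cells. Most positive cells held 1 UMI, and none held more than 24. At 1000 UMIs per cell 7.75%, 8.44%, 5.92% and 8.15% had a UMI, with overlapping intervals, against at most 1.68% in thymocyte-like cells. Unthinned, 37.7%, 39.7%, 23.6% and 39.5% had one.

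The lower level of Wfdc2 in Cd40-/- Control was found in most classes. It was lower beyond counting error in 13 of 15 classes, with a median log2 ratio of -0.81, and within counting error in neuroendocrine-like and parathyroid-like cells. CCL21+ mTEC-like cells held 54.6 CPM in WT-Control against 30.6 for Cd40-/- Control, a ratio of -0.83 (-1.06 to -0.61). Both levels can be set against those of thymocyte-like cells, 130 CPM (85.2 to 191) in WT-Control, where 19 of 26 UMIs were in 1 cell, and 9.92 CPM in Cd40-/- Control, a ratio of -3.72. The largest level of Wfdc2 in WT-Control, 1918 CPM, was in secretory-like cells (70 cells, gated on Bpifa1, Bpifb1, Scgb1a1, Scgb3a2, Muc5b and Tff3), and 686 of its 1629 UMIs were in 1 cell. In the 34 secretory-like cells of Cd40-/- Control it was at 309 CPM, a ratio of -2.64 (-2.91 to -2.37) and of -2.20 without the highest cells.

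In WT-RANKL-Ab Wfdc2 was higher than in WT-Control in 8 of 11 classes, lower in 2 and within counting error in progenitor-like cells. The largest ratio, 2.44 in TA-TEC-like cells (517 against 95.2 CPM), rested on 1 cell with 709 of 1108 UMIs and was 1.03 without the highest cells. In microfold-like cells the ratio was 2.16 (2.01 to 2.31) and 1.76 without them. The cTEC-like cells were lower, at 102 against 215 CPM. The Cd40-/- mice had 86.8 CPM with control IgG and 83.5 CPM with the antibody, so that the 3 ratios were -1.07, -1.31 and -1.36. They depended on the gate: in cells placed alike by gate and cluster they were 0.063, -0.15 and -0.12, and with the thymocyte-like level subtracted -0.14, -0.14 and -0.068.

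Slpi was the gene with the fewest UMIs. It was detected in 651 of 10218 cells in WT-Control and in 73 of 7164, 193 of 8591 and 22 of 2082 in the other libraries. In WT-Control it was highest in enterohepatic-like (365 CPM) and secretory-like cells (344 CPM), which overlapped in their intervals, then in microfold-like cells (261 CPM) and in cells of the Aire gate (153 CPM). Progenitor-like and CCL21+ mTEC-like cells were the lowest, at 4.49 and 9.15 CPM. Thymocyte-like cells stood at 15.0 CPM on 3 UMIs, with an interval that overlapped both.

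In progenitor-like cells Slpi was at 4.49 CPM in WT-Control (11 UMIs), 1.30 CPM in WT-RANKL-Ab (5 UMIs), and 12.3 CPM (44 UMIs) and 3.28 CPM (14 UMIs) in the corresponding Cd40-/- libraries. The higher value in Cd40-/- Control came from 1 cell with 35 of the 44 UMIs, and without the highest cells the level was 2.52 against 3.27 CPM in WT-Control. The ratio of Cd40-/- RANKL-Ab, -0.45 (-1.70 to 0.83), did not exceed counting error. At 1000 UMIs per cell between 1 and 4 cells of each library had a UMI, so that no difference was detectable at this depth.

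Elsewhere Slpi was lower in WT-RANKL-Ab than in WT-Control in 9 of 10 classes, and in none was it higher. Microfold-like cells held 261 CPM in WT-Control against 7.23 for WT-RANKL-Ab, a ratio of -5.17 (-7.45 to -3.62). Early Aire-lineage-like cells held 28.9 and 0.274 CPM, a ratio of -6.72 (-12.03 to -4.24) on 1 UMI in the latter. In Cd40-/- RANKL-Ab 0 UMIs were found in 6 of 7 other classes, which with a floor of 3 UMIs made the cTEC-like level at least 89.0-fold, the keratinocyte-like level at least 11.6-fold and the TA-TEC-like level at least 6.92-fold lower.

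In Cd40-/- Control, Slpi was lower in 8 of 15 classes and higher in 4. The higher values in progenitor-like, tuft-like, parathyroid-like and thymocyte-like cells did not exceed counting error without the highest cells, where 9 of the 15 classes were lower and none was higher. Cells of the Aire gate held 153 CPM in WT-Control against 20.6 for Cd40-/- Control. Microfold-like cells held 10.3 CPM in Cd40-/- Control, a ratio of -4.66 (-5.47 to -3.95). Keratinocyte-like cells, at 145 and 140 CPM, were within counting error.

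Over whole libraries Wfdc17 stood at 194, 30.5, 117 and 2.14 CPM, and Slpi at 92.9, 7.34, 22.9 and 1.46 CPM. Wfdc18 stood at 3072, 3100, 3309 and 1228 CPM and Wfdc2 at 216, 224, 117 and 84.1 CPM. To separate the mix of classes from levels within them, the class levels of WT-Control were applied to the mix of each library. For Wfdc17 this gave 99.2, 160 and 64.9 CPM in the libraries other than WT-Control, and for Slpi 38.6, 79.1 and 30.2 CPM, all above the measured values. For Wfdc18 in Cd40-/- Control it gave 2381 CPM, below the measured value, and in Cd40-/- RANKL-Ab 2455 CPM. For Wfdc2 in WT-RANKL-Ab it gave 168 CPM, below the measured 224. For each of the 4 genes at least 1 library thus lay away from the level that its class mix gave, as far as these gates divide the cells.

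**Figure D4:**
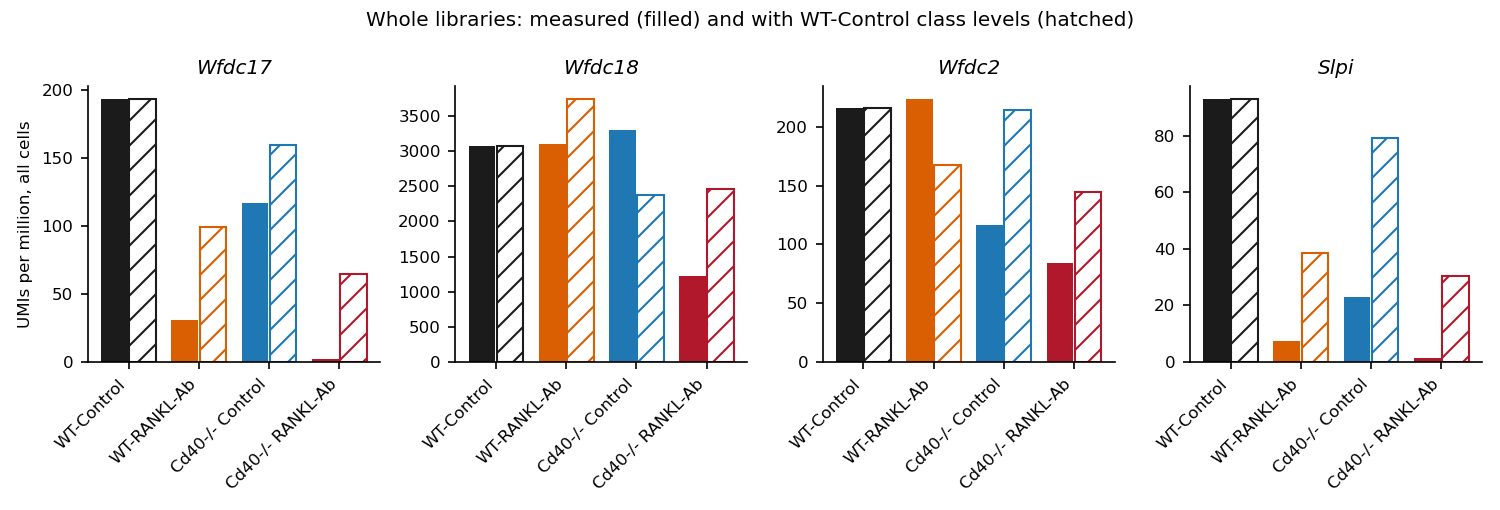
Level of each gene over all cells of a library in CPM, as measured (filled bars) and with the class levels of WT-Control applied to the class mix of the library (hatched bars). In Cd40-/- RANKL-Ab the Wfdc17 bars stand at 2.14 and 64.9 CPM and the Slpi bars at 1.46 and 30.2 CPM.

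Because Wfdc2 and Slpi lie on the chromosome that carries the Cd40 allele, genes within 1 Mb of Cd40 were read as well. Of 74 such genes, 52 had at least 50 UMIs over all cells of Cd40-/- Control and WT-Control, with a median log2 ratio of -0.10, and 4 were at least 2-fold lower and 3 at least 2-fold higher. Of 19102 genes with as many UMIs, 4.32% were lower and 5.77% higher by this measure. The lower Wfdc2 and Slpi levels of Cd40-/- Control and any effect of alleles carried along with Cd40-/- cannot be told apart in these libraries.

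Other antiproteases in progenitor-like cells were mostly within 2-fold of WT-Control. Of 61 serpins, 14 had at least 50 UMIs in Cd40-/- RANKL-Ab and WT-Control together, with a median log2 ratio of 0.04 against 0.14 for all genes. None was at least 2-fold lower or higher, against 2.84% and 3.80% of all genes. The most changed were Serpinb1a, an inhibitor of neutrophil proteases (153 against 288 CPM in WT-Control, -0.91), Serpina3g (-0.78), Serpina3i (-0.70) and Serpinb5, or maspin (0.56). Serpinb1a and Serpina3g were also lower in WT-RANKL-Ab, at -1.48 and -1.31. In that library 2 of 14 measured serpins were at least 2-fold lower, against 3.21% of all genes. Of the same 14, 1 was at least 2-fold higher, against 2.66% of all genes.

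Of the 19 other WFDC-domain genes only Wfikkn2, an antagonist of GDF8 and GDF11, had 50 UMIs, at 235 against 256 CPM (-0.13, -0.27 to 0.02). Of 21 Kunitz and Kazal inhibitors 3 were measured, Tfpi, an inhibitor of coagulation (-0.41), and Spint1 and Spint2, membrane inhibitors of hepsin and matriptase (-0.38 and -0.20). Cystatins, inhibitors of cysteine cathepsins, gave 2 of 15: Cst6 was at 5.62 against 49.4 CPM (-3.13, -3.83 to -2.49) and Cst3 at -0.38. Cst6 was similarly low in WT-RANKL-Ab, at 6.49 CPM. Of 7 TIMPs and alpha-2-macroglobulins, which act on metalloproteases, Timp1 was lower (22.0 against 55.9 CPM, -1.34), and Timp3 (0.30) and Timp2 (-0.04) were not. Cst6 and Timp1 were the 2 of 23 measured genes of these 5 lists that were at least 2-fold lower, against 2.84% of all genes. None was 2-fold higher, against 3.80% of all genes. With a limit of 20 UMIs, 6 of 27 were lower, against 4.71% of all genes.

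The leukocyte proteases that WAP inhibitors act on, such as Elane, Ctsg and Prtn3, were under 50 UMIs in progenitor-like cells, 0 of 9 being measured. Of 31 epithelial serine proteases 4 were measured: Klk14, a kallikrein, had 56 UMIs in WT-Control and 0 in both antibody libraries, and St14, or matriptase, stood at -0.59, Hpn, or hepsin, at -0.05 and Prss8, or prostasin, at 0.32. In CCL21+ mTEC-like cells of Cd40-/- RANKL-Ab 6 of 9 measured epithelial proteases were at least 2-fold lower, with a median of -2.87 against 0.12 for all genes, of which 6.09% were lower. With 10 CPM added to each level 2 of 9 were lower, with a median of -0.54, and with a limit of 200 UMIs 2 of 4. Among them, named after their values were seen, Klk1 had 238 UMIs in WT-Control and 0 in Cd40-/- RANKL-Ab, and Tmprss4 was at 5.98 against 49.8 CPM. Whether single cells carried the values of these listed proteases and of the listed antiproteases above was not examined.

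Finally, genes with the pattern most like each of the 4 were sought over 41 sums of a class in a library, among 11897 genes, by Pearson's r of log2(CPM + 10). These sums share libraries and cells, so the values are descriptions. Wfdc17 was closest to Pglyrp1, a peptidoglycan recognition protein (0.946), Lyz1, the Paneth cell lysozyme (0.938), and Bcl2a1d (0.915). Wfdc18 was closest to Dapk2 (0.891), Chmp4c (0.872) and Pcdh17 (0.870), Wfdc2 to Fam187b (0.850), Alkbh6 (0.817) and Fam173a (0.802), and Slpi to Scgb1c1 (0.917), Klk1b9 (0.902) and Pyy, a gut hormone (0.898). Among the 4 genes themselves r was 0.687 between Wfdc17 and Wfdc18, 0.661 between Wfdc17 and Slpi and 0.254 between Wfdc18 and Slpi.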

How the data were processed

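Reads were filtered by the authors using Fastp and mapped on mm10 using Cell Ranger (version 5.1 in the submitters' processing notes), and they deposited UMI counts per gene and barcode, without normalization, for barcodes called as cells. The labels name version 2 of the 10x 3′ kit and the study's methods version 3.1. Cells with fewer than 200 genes or over 25% mitochondrial UMIs were left out. Cells were given to 15 classes by markers, with at least 0.5 of a class's markers detected and a score of at least 0.5, to a nurse cTEC-like class where thymocyte-like cells had at least 0.5 of the cTEC markers, or otherwise to none. The genes and lists were chosen with earlier results of these data known, and gate limits were set after the cells had been seen.

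UMIs were summed per class and library and scaled to 1000000 (CPM). Intervals are exact: Poisson for CPM, conditional binomial for ratios, Clopper-Pearson for shares. Only those for ratios were tested on simulated data, drawn as Poisson counts, a setting in which they should hold. Spread between cells was not simulated. A ratio needed 20 cells in both libraries, and a listed gene 50 UMIs. Limits for counts of 0 use 3 UMIs. Besides the 4 genes, the 3 most alike in pattern and up to 4 per list with the largest log2 ratio were named. PCR duplicates were collapsed by UMI. Reads shared by related genes were not analysed here.

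Python 3.11.15, scanpy 1.11.5, leidenalg 0.10.2, Biopython 1.88 and, for TMM factors, edgeR 4.0.16 under R 4.3.3 were used. Coordinates are those of the GENCODE annotation on GRCm38, matched for 31011 of 31053 genes. Alternatives were other gates, clusters, depths, totals, scalings and limits, and the removal of the highest Scrublet scores.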

Additional observations from a re-analysis of the deposited data

Results flagged for a closer look

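Wfdc18 in TA-TEC-like cells, the cycling class, differed between genotypes in the sign of the antibody's difference. In wild-type mice WT-RANKL-Ab stood at 0.18 (0.13 to 0.23) relative to WT-Control on the log2 scale, whereas Cd40-/- RANKL-Ab stood at -2.11 (-2.25 to -1.99) relative to Cd40-/- Control. The levels behind these ratios were 1716 and 1943 CPM in the former pair and 2677 and 618 CPM in the latter, with 35 cells in Cd40-/- RANKL-Ab, 1 of which held 248 of 493 UMIs.

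Wfdc2 in keratinocyte-like cells was likewise higher in WT-RANKL-Ab than in WT-Control, at 1.23 (1.09 to 1.37), and lower in Cd40-/- RANKL-Ab than in Cd40-/- Control, at -2.58 (-3.91 to -1.52). Of the 661 Wfdc2 UMIs in this class of WT-RANKL-Ab 350 were in 1 cell, and Cd40-/- RANKL-Ab held 7 UMIs in 24 cells. In both cases the libraries moved in opposite directions, and with 1 library per condition the difference was not tested.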

How the results depend on the processing

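The ratios were recomputed under further settings, 4 of them chosen after seeing the data. These left out the shared barcodes of Cd40-/- Control or the highest cell of each library, or kept Ccl21a-low progenitor-like cells or cells placed alike by gate and cluster. No paired analysis was possible because the labels carry no replicate numbers, and no replicate could be left out of conditions with 1 library each. Scrublet called 0 to 2 cells per library. Possible doublets were therefore taken as the cells with the highest 5% of its scores and all cells with a UMI of any thymocyte marker. Of ratios beyond counting error, 11 values changed sign in progenitor-like, 2 in CCL21+ mTEC-like and 4 in cTEC-like cells. Of ratios within it, whose sign is not read, 8, 5 and 2 did. The cause was not tested. All values below are log2 ratios to WT-Control in progenitor-like cells unless another class is named.

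In WT-RANKL-Ab, Wfdc17 stood at -2.40 in clusters, -3.49 without possible doublets, -4.66 without the highest cell and -2.71 with gate and cluster combined. Wfdc18 stood there at -1.36 in clusters, -1.86 with TMM factors, -2.12 thinned to 1000 UMIs, -2.22 without possible doublets and -3.58 in Ccl21a-low cells. Wfdc2 stood at -0.34 with stricter gates, -0.31 in clusters, 0.43 thinned, -0.65 in Ccl21a-low cells and -0.59 with gate and cluster combined, and Slpi at -0.12 in the last of these.

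In Cd40-/- Control, Wfdc17 stood at -4.25 with stricter gates, -2.43 as a mean over cells, -2.71 thinned, -0.23 without possible doublets, -0.31 without the highest cell and -4.55 in Ccl21a-low cells, and changed sign to 1.72 in clusters and 1.31 with both. Wfdc18 stood at 0.40 with stricter gates, 0.58 with TMM factors, 0.55 thinned, 0.89 without possible doublets and 0.86 without the highest cell, and changed sign to -0.83 in clusters, -1.54 in Ccl21a-low cells and -0.86 with both. Wfdc2 stood at -1.24 with stricter gates and -0.34 thinned. Slpi was 0.013 as a mean over cells and changed sign to -0.24 with stricter gates, -1.78 in clusters, -0.25 thinned, -0.38 without the highest cell and -1.94 in Ccl21a-low cells.

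In Cd40-/- RANKL-Ab, Wfdc17 stood at -3.42 without possible doublets and -3.81 without the highest cell. Wfdc18 stood at -1.77 with stricter gates, -2.07 in clusters, -1.68 with TMM factors, -1.73 as a mean over cells, -1.88 thinned, -1.97 without possible doublets, -1.70 without the highest cell, -4.34 in Ccl21a-low cells and -3.40 with both. Wfdc2 stood at -0.74 with stricter gates and -0.57 in Ccl21a-low cells and changed sign to 0.22 thinned, and Slpi stood at -2.44 in Ccl21a-low cells. The antiproteases at least 2-fold lower numbered 2 of 23 (2.84% of all genes), but 6 of 27 with a limit of 20 UMIs (4.71%) and 1 of 18 with a limit of 200 UMIs (1.95%).

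In CCL21+ mTEC-like cells of WT-RANKL-Ab, Wfdc17 changed sign to 0.57 once the thymocyte-like level was subtracted and Wfdc2 to -0.14 as a mean over cells. In cTEC-like cells of Cd40-/- Control, Wfdc17 changed to 0.61 with both, and Wfdc18 to 0.32 with stricter gates and 0.23 with both. Wfdc2 in those of WT-RANKL-Ab changed to 0.063 with both.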
